A study of Mus musculus with 6 samples.

Results

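The genes followed here mark macrophages of adipose tissue, and they were compared in iWAT of mice at 2 housing temperatures: Cd68, Csf1r, Mrc1, Cd163, Lyve1, Folr2, Timd4, Retnla, Clec10a and Trem2. They were chosen by name, with no threshold on their values but with earlier results of these data known. All 10 were found among the 22564 gene rows of the expression table. RNA-seq had been run on whole iWAT, the fat pad under the skin of the groin, from mice labelled C57BL/6, given in the study's methods as C57BL6/J males of 2 months. In the cold group (n = 3) the mice lived at 4 °C for 7 days, and in the thermoneutral group (n = 3) at 30 °C for 7 days, so that the groups differ in temperature only, as far as the labels say. The labels name adipocytes as the source and iWAT as the tissue, and give no answer as to 1 mouse or a pool behind each sample, so the p-values measure the spread between these samples.

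Macrophages are phagocytes that live in every tissue and take up dead cells, lipid and debris. In adipose tissue they lie between the adipocytes and along the vessels, depend on signals through the receptor encoded by Csf1r, and fall into resident, alternatively activated and lipid-associated states that are recognised by sets of surface receptors and secreted proteins. The level of such a marker in whole iWAT reads both how many macrophages the pad holds and how much of each mRNA a macrophage carries. In these bulk samples fewer cells of a type and less RNA per cell cannot be told apart.

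Macrophage transcripts were present in every sample, with 12 genes used broadly by tissue macrophages (among them Adgre1, C1qa and Lyz2) summing to 6613 to 10733 scaled counts in the cold and 15936 to 27684 at 30 °C. A scaled count is a fragment count that had been divided by 1 size factor per sample, and FPKM is the authors' value per length of transcript and per library, so that for single genes the group difference can vary between these scales. Ucp1, the uncoupling protein of thermogenic adipocytes, stood at 107026 to 137879 scaled counts in the cold and at 114 to 242 at 30 °C. Of the 7 adipocyte genes tested it was the only one called higher as deposited, Lep (-2.94, limma adjusted p = 0.00977) and Adipoq (-1.04, limma adjusted p = 0.0202) were lower, and 4 were not called. After centring 2 were higher and 1 was lower. Of all tested genes, 6.24% were higher and 35.2% lower as deposited, and 10.3% and 5.35% after centring. Estimated fragments per sample ran from 15262070 to 16936375 in the cold and from 18894385 to 23636742 at 30 °C. Cold sample 2 and thermoneutral sample 1 stood apart from the rest. Cold sample 2 carried skeletal muscle transcripts (Acta1 at 40274, and at 108.5 and 63.4 in cold samples 1 and 3) and lymphoid transcripts, and thermoneutral sample 1 carried epithelial ones (Krt14 at 22333, and at 4.84 and 38.2 in thermoneutral samples 2 and 3). Where leaving out these samples ended a marker's call, that is given with the marker.

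Of the 10 macrophage markers, 9 were lower in the cold and none was higher (limma, Benjamini-Hochberg adjusted p under 0.05), and Timd4 was the only one not called. The background is high, since 35.2% of the 11650 tested genes were called lower and 6.24% higher, and the median gene was already lower by 0.54 on the log2 scale. All 10 markers passed the filter of FPKM 1 in at least 3 samples, Trem2 only through the thermoneutral group, since its 3 cold samples were under FPKM 1, as were 2 of 3 cold samples for Timd4. Their log2 differences, cold minus thermoneutral, ran from -2.86 to -1.23 with a median of -2.04, against a median of -0.54 over all tested genes. When each sample was centred on its median gene, 8 of the 10 markers were still called lower and none higher, where 5.35% of tested genes were called lower and 10.3% higher. The markers not called there were Retnla and Timd4. The scaled counts of the groups did not overlap for 9 of the 10 markers, as for 52.1% of tested genes in this direction. All 10 markers were called lower when cold sample 2 was left out (22.6% of tested genes), and likewise when thermoneutral sample 1 was left out with it (41.5%). Leaving out 1 other sample gave 9 markers without cold sample 1 (28.7%), cold sample 3 (14.9%) or thermoneutral sample 1 (44.1%), and 8 without thermoneutral sample 2 (9.52%) or 3 (9.11%). With centring as well, the counts were 6 of 10 without cold sample 2 (2.32%) and 7 of 10 without both samples (8.3%).

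**Figure D1:**
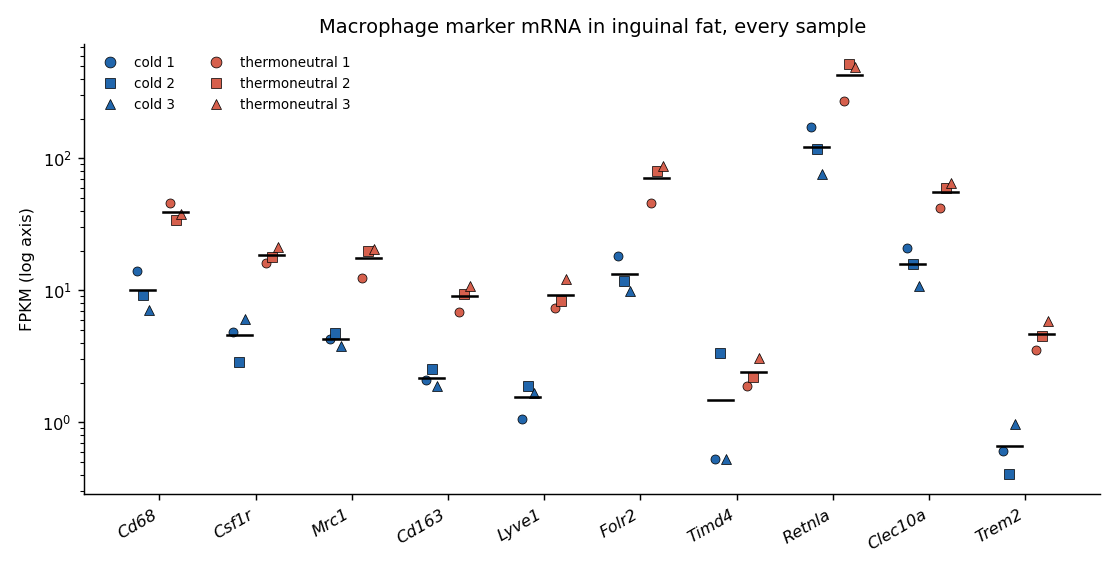
FPKM (log axis) of the 10 macrophage markers in each of 3 cold (blue) and 3 thermoneutral (red) iWAT samples, with replicate numbers as marker shapes and horizontal bars at the group means. For 9 markers the cold samples all lie under the thermoneutral ones, and for Timd4 cold sample 2 (3.33) lies above all 3 thermoneutral samples (1.87 to 3.09).

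Per length of transcript, Retnla was by far the most abundant of the markers, with a mean FPKM of 122 ± 49.3 (SD, n = 3) in the cold and 426 ± 133 (SD, n = 3) at 30 °C. In the cold it was followed by Clec10a (15.9), Folr2 (13.3) and Cd68 (10.1), then Csf1r (4.58) and Mrc1 (4.25), then Cd163 (2.16), Lyve1 (1.54), Timd4 (1.46) and Trem2 (0.659), all as mean FPKM. Neighbours in this order overlapped in their ranges within each run, and not where one run ended and the next began. At 30 °C the order was Retnla, Folr2 (71.0), Clec10a (55.1), Cd68 (39.2), Csf1r (18.4), Mrc1 (17.6), Lyve1 (9.24), Cd163 (8.998), Trem2 (4.63) and Timd4 (2.39). Here Folr2, Clec10a and Cd68 overlapped their neighbours, as did Csf1r with Mrc1 and Lyve1 with Cd163, whereas Trem2 lay above Timd4 with no overlap. Together the 10 mRNAs made up 0.0223% to 0.0393% of all FPKM in the cold samples and 0.0839% to 0.135% in the thermoneutral ones.

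Cd68 and Csf1r are the markers that macrophages share whatever their state. Cd68 (ENSMUSG00000018774, chr11:69664213-69666153, minus strand, GRCm38) encodes a glycoprotein of the endosome and lysosome. Its scaled counts were 324, 220.4 and 159 in the cold and 1099.8, 821 and 880.0 at 30 °C, in the order of samples 1 to 3. Every cold sample was under every thermoneutral one, and thermoneutral sample 1 was the highest of all, unlike its place for the other markers. The mean was 235 ± 83.7 in the cold and 933 ± 147 at 30 °C (SD, n = 3), a log2 difference of -2.04 ± 0.29 (SE; limma adjusted p = 0.00670). After centring it was -1.50 (limma adjusted p = 0.0240), and the call was lost with centring and without cold sample 2 (limma adjusted p = 0.0755) or without both samples that stood apart (limma adjusted p = 0.0809).

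Csf1r (ENSMUSG00000024621, chr18:61105572-61177050, plus strand) encodes the receptor for the growth factors CSF1 and IL-34, on which most tissue macrophages depend. Scaled counts of 422, 246 and 509 in the cold stood against 1353, 1517 and 1798 at 30 °C. The groups were far apart, and cold sample 2 was the lowest of the 6. Means were 392 ± 134 and 1556 ± 225 (SD, n = 3), and the log2 difference was -2.04 ± 0.30 (SE; limma adjusted p = 0.00723). The locus as deposited overlaps the antisense gene Hmgxb3, and the library kit does not mark strand, so fragments from the shared stretch cannot be told apart.

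The receptors of resident and perivascular macrophages form the largest group. Mrc1 (ENSMUSG00000026712, chr2:14229414-14332057, plus strand) encodes the mannose receptor CD206, which binds and internalises glycoproteins. It gave 465, 556 and 431 scaled counts in the cold and 1452, 2289.7 and 2377 at 30 °C. The cold samples lay close together, and thermoneutral sample 1 was lower than the other two. With means of 484 ± 64.5 and 2039.5 ± 511 (SD, n = 3), Mrc1 fell by 2.05 on the log2 scale in the cold (SE 0.24; limma adjusted p = 0.00463) and by 1.51 after centring (limma adjusted p = 0.00746).

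Cd163 (ENSMUSG00000008845, chr6:124304651-124330527, plus strand), the scavenger receptor for haemoglobin bound to haptoglobin, moved almost as Mrc1 did. Its scaled counts were 199, 244 and 182 in the cold and 657, 896 and 1048 at 30 °C. The ranking of the 3 cold samples was the one seen for Mrc1, as was the low place of thermoneutral sample 1. The means were 208 ± 31.9 and 867 ± 197 (SD, n = 3), and the log2 difference was -2.04 ± 0.23 (SE; limma adjusted p = 0.00423).

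Lyve1 (ENSMUSG00000030787, chr7:110850607-110862953, minus strand) encodes a hyaluronan receptor that is carried by perivascular macrophages and by lymphatic endothelium. In the cold it measured 58.3, 104 and 92.4 scaled counts, and at 30 °C 407, 454 and 667. Even the lowest thermoneutral sample was well above the highest cold one. The means were 85.0 ± 23.9 and 509 ± 138 (SD, n = 3), a 5.97-fold higher level at 30 °C and a log2 difference of -2.58 ± 0.29 (SE; limma adjusted p = 0.00434). Of the markers of lymphatic endothelium, Prox1, its defining transcription factor, was at 0 to 6.53 scaled counts in all samples. Flt4 gave 127, 196 and 151 against 123, 197 and 224 and was not called (log2 difference -0.18, limma adjusted p = 0.615), whereas Pdpn, which fibroblasts also express, fell (-2.16, limma adjusted p = 0.00730). The 6 lymphatic genes summed to 248 to 797 scaled counts in the cold and 352 to 682 at 30 °C.

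Folr2 (ENSMUSG00000032725, minus strand) encodes folate receptor beta, a surface protein of resident macrophages. Scaled counts were 377, 241 and 203 in the cold, and 948, 1652 and 1792 at 30 °C. The groups did not overlap, and thermoneutral sample 1 was again the lowest of its group. Means of 274 ± 91.6 and 1464 ± 453 (SD, n = 3) gave a log2 difference of -2.41 ± 0.34 (SE; limma adjusted p = 0.00649). With centring and without cold sample 2 the call was lost (-1.76, limma adjusted p = 0.0548). The deposited locus (chr7:101818313-101847325) is shared with Phox2a and Inppl1, and an antisense gene overlaps Folr2, so its counts may hold fragments of other transcripts. Its paralog Folr1 was at 0 to 4.22 scaled counts in 5 samples and at 92.8 in thermoneutral sample 1, the sample with epithelial transcripts.

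Timd4 (ENSMUSG00000055546, chr11:46810800-46844332, plus strand) encodes TIM-4, a receptor for phosphatidylserine with which long-lived resident macrophages bind dying cells. It was the exception among the 10, with 24.0, 151 and 23.9 scaled counts in the cold and 84.7, 101 and 140.2 at 30 °C. Cold samples 1 and 3 were far under the thermoneutral samples, and cold sample 2 was above all of them. The means of 66.2 ± 73.2 and 108.5 ± 28.6 (SD, n = 3) differed by -1.23 ± 0.71 on the log2 scale (SE; limma adjusted p = 0.190). Without cold sample 2 the difference was -2.10 (limma adjusted p = 0.0160), a choice of sample made after the values had been seen. After centring and without that sample it was -1.51 (limma adjusted p = 0.0266).

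Cold sample 2 also held the highest level of every B cell gene examined. Cd79a, a subunit of the B cell receptor, measured 152, 497 and 22.9 scaled counts in the cold and 13.3, 11.6 and 15.8 at 30 °C. Ms4a1, which encodes CD20, measured 24.0, 211 and 12.5 against 3.06, 13.5 and 4.98. The lymph node chemokine gene Ccl21a measured 35.4, 471 and 1.04 against 15.3, 11.6 and 35.7. The 9 lymphocyte genes summed to 129 to 1490 in the cold, highest in sample 2, and to 234 to 686 at 30 °C, where thermoneutral sample 1 was highest through Gata3 (581 of its sum). Its sum of the 12 pan-macrophage genes (9898) lay between those of the other cold samples (10733 and 6613). Mrc1, Cd163, Lyve1 and the pan-macrophage gene Adgre1 (165.6, 195 and 149.5 scaled counts in the cold) were also highest of the cold group in sample 2, but under every thermoneutral sample. The part of lymphoid tissue in the Timd4 value was not tested.

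**Figure D2:**
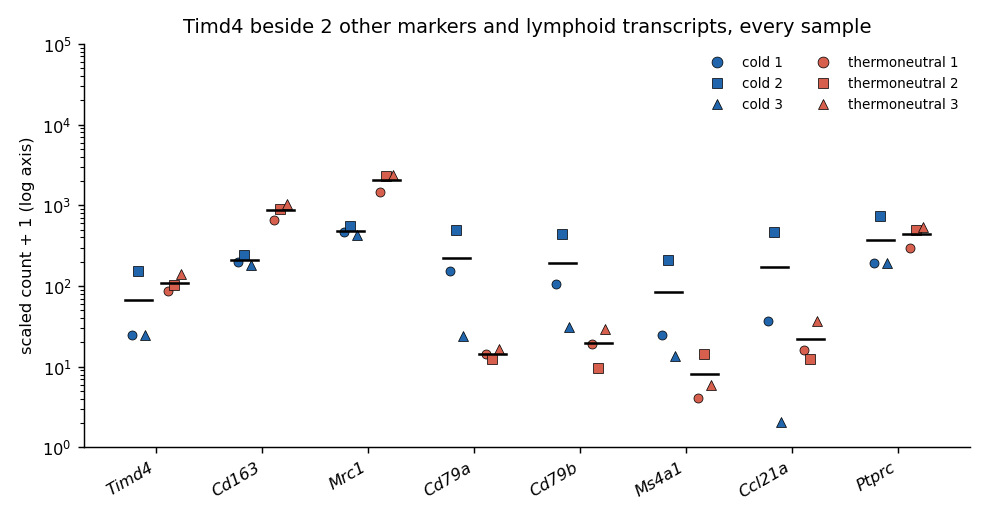
Scaled counts plus 1 (log axis) of Timd4, the macrophage markers Cd163 and Mrc1, the B cell genes Cd79a, Cd79b and Ms4a1, the chemokine gene Ccl21a and the leukocyte gene Ptprc in each sample, with bars at group means. Timd4 and the 5 lymphoid and leukocyte genes are highest in cold sample 2 (Timd4 at 151, Cd79a at 497), whereas Cd163 (244) and Mrc1 (556) are far under every thermoneutral sample there.

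Retnla and Clec10a belong to alternative activation, the state that IL-4 and IL-13 induce through STAT6. Retnla (ENSMUSG00000061100, chr16:48842552-48844461, plus strand) encodes RELM-alpha, a small secreted protein. Scaled counts were 1706, 1139 and 732 in the cold and 2641, 5024 and 4804 at 30 °C. The groups did not overlap, yet their nearest samples were closer, as a ratio, than for any other called marker, since cold sample 1 was high and thermoneutral sample 1 low. The log2 difference of -1.83 ± 0.39 (SE; limma adjusted p = 0.0157) rests on means of 1192 ± 489 and 4156 ± 1316.5 (SD, n = 3). The call was lost after centring (-1.29, limma adjusted p = 0.0716), without thermoneutral sample 2 (limma adjusted p = 0.0573) and without thermoneutral sample 3 (limma adjusted p = 0.0576). The paralogs Retnlg (0 to 6.85 scaled counts) and Retnlb (0 in all samples) were close to absent.

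Clec10a (ENSMUSG00000000318, chr11:70156197-70170834, plus strand) encodes a lectin for galactose and N-acetylgalactosamine that dendritic cells also carry. It measured 592, 439.7 and 316 scaled counts in the cold and 1192, 1739 and 1832 at 30 °C. Its order over the samples was that of Retnla within the cold group, with sample 1 highest and sample 3 lowest. The means were 449 ± 138 and 1588 ± 346 (SD, n = 3), with a log2 difference of -1.84 ± 0.29 (SE; limma adjusted p = 0.00841). With centring the call was lost without cold sample 2 (-1.26, limma adjusted p = 0.0914) and without both samples that stood apart (-1.43, limma adjusted p = 0.0523). Mgl2, the neighbouring paralog and a second marker of the same state, fell by 1.69 on the log2 scale (limma adjusted p = 0.00824), with 327 to 473 scaled counts in the cold and 888 to 1489 at 30 °C. Fragments that both paralogs share may be split between them.

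Trem2 (ENSMUSG00000023992, chr17:48346401-48354147, plus strand) encodes a lipid-sensing receptor of lipid-associated macrophages. It was the least abundant marker in the cold, with scaled counts of 14.9, 9.49 and 19.7 there and 78.6, 118 and 139 at 30 °C. The groups were separated by a wide gap for so few fragments. Means of 14.7 ± 5.12 and 112 ± 30.8 (SD, n = 3) gave a log2 difference of -2.86 ± 0.32 (SE; limma adjusted p = 0.00426), which is 7.28-fold. Its FPKM was under 1 in every cold sample (0.602, 0.406 and 0.969), so that it was tested only because of its level at 30 °C. The size depends on the scale at this low level, being 3.38-fold on log2(FPKM + 1). Of its signalling partners, the adaptor gene Tyrobp fell (-1.32, limma adjusted p = 0.0164). Syk (-0.91), Plcg2 (-1.98), Inpp5d (-0.78) and the second adaptor gene Hcst (-0.36) were not called, with limma adjusted p of 0.0820, 0.0654, 0.146 and 0.775. None of these 5 partners was called after centring. Plcg2 was highest, at 846 scaled counts, in the thermoneutral sample with epithelial transcripts.

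**Figure D3:**
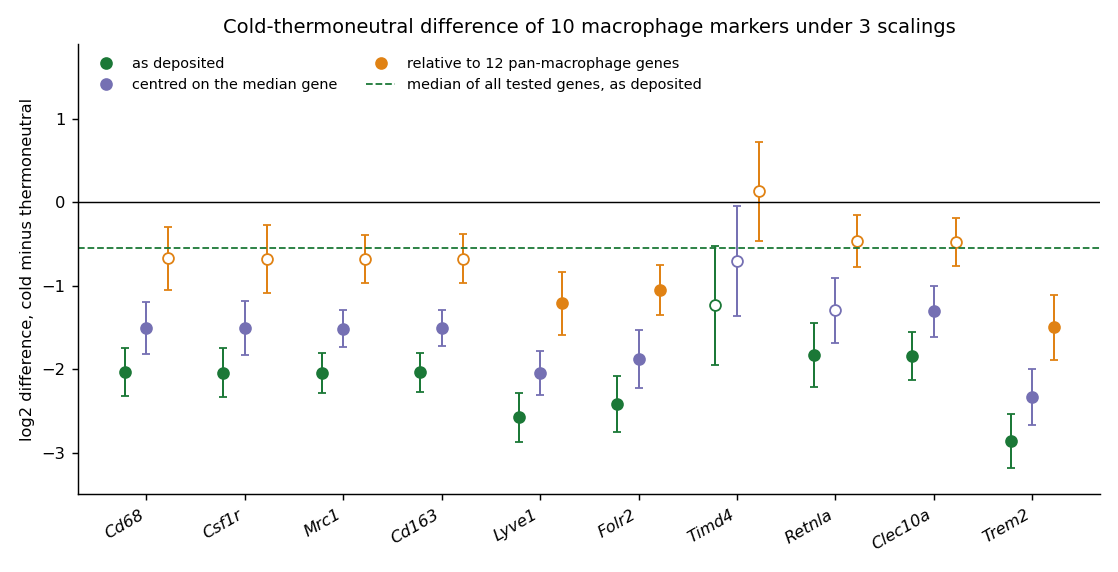
Difference of mean log2 values, cold minus thermoneutral, for the 10 markers with standard errors, as deposited (green), after centring on the median gene (violet) and relative to the mean of 12 pan-macrophage genes (orange), where filled circles have a limma adjusted p under 0.05. The green dashed line is the median of all tested genes as deposited (-0.54), and 9, 8 and 3 markers are filled under the 3 scalings.

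Whether the markers fell more than macrophage genes at large was asked by dividing them, within each sample, by the mean of the 12 pan-macrophage genes, none of which is among the 10. On the log2 scale that mean was 8.74, 8.70 and 8.22 in the cold and 9.43, 10.1 and 10.2 at 30 °C. The 12 genes differed unequally, from -1.85 for Adgre1 to -0.59 for Mpeg1, so the ratio depends on which genes form the mean. The part of other leukocytes in that mean was not tested. Relative to the pan-macrophage mean, Lyve1 (-1.21 ± 0.37, limma adjusted p = 0.0325), Folr2 (-1.05 ± 0.30, limma adjusted p = 0.0246) and Trem2 (-1.50 ± 0.39, limma adjusted p = 0.0177) were still lower in the cold (SE, n = 3 against 3). Trem2 had been tested only because of its level at 30 °C, so its call here is no independent support. On log2(FPKM + 1) its ratio was -0.55 (limma adjusted p = 0.149). Only 0.695% of all tested genes were called lower on this scale, on which the median gene is higher in the cold by 0.82.

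The 3 calls are not stable. The number of markers called was 0 without cold sample 2 (0.429% of tested genes lower) or thermoneutral sample 3 (0.309%), and 1 without thermoneutral sample 2 (0.429%). It was 2 without cold sample 1 (0.524%) or cold sample 3 (0.584%), and 3 without thermoneutral sample 1 (1.12%). Without both samples that stood apart it was 2, Trem2 and Folr2 (0.712%). With FPKM in place of scaled counts only Folr2 was called (0.567%), and with 6 pan-leukocyte genes as the reference only Trem2 (0.695%). The sign of all 3 was negative in each of these settings.

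The differences of Mrc1 (-0.68), Cd163 (-0.67), Cd68 (-0.67), Csf1r (-0.67) and Clec10a (-0.47) from the pan-macrophage mean were not called, with limma adjusted p of 0.0830 to 0.199. Retnla differed by -0.46 (limma adjusted p = 0.239). Timd4 differed by 0.13 (limma adjusted p = 0.860), and by -0.66 without cold sample 2. Within the thermoneutral group, the ratio of Mrc1 to the pan-macrophage mean was almost constant, at 1.08, 1.04 and 1.00 on the log2 scale, although its scaled count in sample 1 was far under those in samples 2 and 3. Cd68 did not share this, with ratios of 0.68, -0.44 and -0.43.

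The 12 pan-macrophage genes were lower as well, with 10 of 12 called as deposited (35.2% of tested genes) and a median of -1.45. After centring 2 of 12 were called (5.35% of tested genes, median -0.92). Without cold sample 2 and thermoneutral sample 1, 11 of 12 were called, where 41.5% of tested genes were called lower. Adgre1, which encodes the macrophage marker F4/80, fell by 1.85 (limma adjusted p = 0.00613), and Mertk, a receptor for the bridging proteins on dying cells, by 1.79 (limma adjusted p = 0.0107). C1qc (-1.77, limma adjusted p = 0.0124), a chain of complement C1q, and the IgG receptor gene Fcgr1 (-1.71, limma adjusted p = 0.0142) fell as deposited. After centring they stood at -1.23 (limma adjusted p = 0.0549) and -1.17 (limma adjusted p = 0.0647) and were not called. The pore protein gene Mpeg1 (-0.59, limma adjusted p = 0.156) and Aif1 (-0.84, limma adjusted p = 0.0644) were not called. For the 10 markers the median was -2.04 as deposited and -1.51 after centring.

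**Figure D4:**
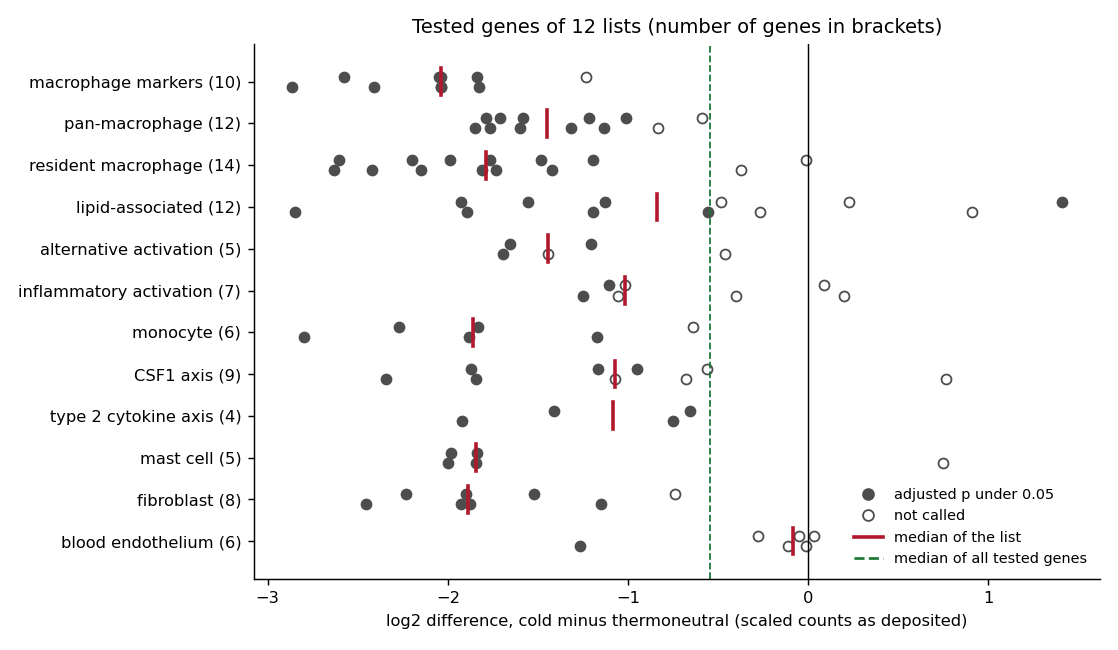
Log2 difference, cold minus thermoneutral, of each tested gene in 12 lists, filled where the limma adjusted p is under 0.05, with the list's median as a red bar and the median of all tested genes (-0.54) as a dashed line. The 10 macrophage markers have a median of -2.04, resident macrophage genes -1.79, fibroblast genes -1.89 and blood endothelium genes -0.08.

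A list of genes used for resident macrophages, outside the 10, showed the same direction. Of 14 tested, 12 were lower and none higher as deposited (median -1.79), where 35.2% of tested genes were lower. Whether macrophages were the source of each of these mRNAs was not tested. After centring 7 of 14 were lower (median -1.25, 5.35% of tested genes), and 13 of 14 without the 2 samples that stood apart (41.5% of tested genes). Gas6, a bridging protein for MERTK and AXL, gave 666 to 999.6 scaled counts in the cold and 4026 to 5608 at 30 °C, and fell by 2.63 (limma adjusted p = 0.00189). At 30 °C it stood far above Adgre1 (439 to 735 scaled counts), and the part of other cells in its level was not tested. F13a1, the A chain of coagulation factor XIII, fell by 2.42 (limma adjusted p = 0.00253), the lectin gene Cd209g by 2.61 (limma adjusted p = 0.00484) and the carbonyl reductase gene Cbr2 by 2.15 (limma adjusted p = 0.00506). Gas6, F13a1 and Cd209g were also lower relative to the pan-macrophage mean (limma adjusted p of 0.0105, 0.0229 and 0.0110). On that scale the endothelin receptor gene Ednrb (1.36, limma adjusted p = 0.0205) and the selenoprotein P gene Sepp1 (1.00, limma adjusted p = 0.0358) were higher, and as deposited they were not called (-0.01 and -0.37). Higher calls are common there, with 36.3% of tested genes called higher and the median gene higher by 0.82.

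In the lipid-associated list to which Trem2 relates, 7 of 12 tested genes were lower and 1 was higher as deposited (35.2% and 6.24% of all tested genes). After centring 2 were lower and 1 higher (5.35% and 10.3%). Gpnmb, a lysosomal glycoprotein of lipid-laden macrophages, fell by 1.93 (limma adjusted p = 0.00850) and Apoe by 1.55 (limma adjusted p = 0.00675). Apoe stood at 86596 to 114549 scaled counts at 30 °C, above the sum of the 12 pan-macrophage genes there (15936 to 27684). The part of other cells in the Apoe level was not tested. Lipa, the lysosomal acid lipase that adipocytes and other cells also express, was the one that rose, by 1.41 (limma adjusted p = 0.00967) and by 1.94 after centring. Of 7 tested genes of inflammatory activation, 2 were lower and 5 were not called, a smaller share lower than the 35.2% of all tested genes. The 2 lower ones were Tlr4 (-1.25, limma adjusted p = 0.0167) and Irf5 (-1.10, limma adjusted p = 0.0339). None of the 7 was called after centring. Tnf, Il1b and Il6 did not pass the filter and were not tested. Tnf measured 33.1, 35.9 and 34.3 scaled counts in the cold and 13.3, 27.1 and 18.2 at 30 °C. Every cold sample was above every thermoneutral one, as for 9.09% of tested genes. Il1b measured 9.35 to 12.7 against 2.04 to 32.3, and Il6 1.04 to 5.27 against 0 to 1.02.

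Of the genes upstream of Csf1r, the ligand gene Csf1 measured 494 to 527 scaled counts in the cold and 1144 to 2321 at 30 °C, a difference of -1.84 (limma adjusted p = 0.00894). Il34, the other ligand, measured 80.1 to 134 and 512 to 629, a difference of -2.34 (limma adjusted p = 0.00329). Both remained called after centring, at -1.31 and -1.81. The transcription factor gene Maf (-1.87, limma adjusted p = 0.0169) and the receptor chain gene Csf2ra (-1.17, limma adjusted p = 0.00936) fell as deposited. After centring they stood at -1.34 (limma adjusted p = 0.0514) and -0.63 (limma adjusted p = 0.0627) and were not called. Spi1, which encodes the macrophage factor PU.1, was not called (-1.07, limma adjusted p = 0.0628), nor were Irf8 (-0.68), Csf2rb (-0.56) and Cebpb (0.76). Csf2 was at 0 to 1.14 scaled counts, and Runx1 did not pass the filter. In all, 5 of 9 tested genes of this list were lower as deposited (35.2% of tested genes) and 2 of 9 after centring (5.35%). Without cold sample 2 and thermoneutral sample 1, 8 of 9 were lower and 1 higher, where 41.5% of tested genes were lower and 6.9% higher. That setting was chosen after the data had been seen.

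Of the type 2 cytokine axis, Il4, Il13 and Il5 were at 0 in 5 of 6 samples each and reached at most 3.12 scaled counts, a depth at which no difference could be shown. Il33, an alarmin released by stromal cells, fell by 1.92 (25.1, 43.2 and 17.7 scaled counts against 85.7, 117 and 114; limma adjusted p = 0.0102), and by 1.39 after centring. On log2(FPKM + 1) its difference was smaller, at -0.70 (limma adjusted p = 0.0335), with an FPKM of 0.469 to 1.29 in the cold and 1.60 to 2.19 at 30 °C. Il13ra1 fell by 1.41 (limma adjusted p = 0.00822), also called after centring, and by 0.83 on log2(FPKM + 1). Its FPKM was 0.714 to 1.01 in the cold and 1.84 to 2.59 at 30 °C. Il33 and Il13ra1 passed the filter through the thermoneutral group. By contrast, Il4ra (-0.75, limma adjusted p = 0.0170) and Stat6 (-0.66, limma adjusted p = 0.0288) fell as deposited and were not called after centring (-0.22 and -0.12, limma adjusted p of 0.428 and 0.641). The IL-33 receptor gene Il1rl1 (20.6 to 43.2 against 76.5 to 87.9) and Il10 (2.08 to 4.22 against 5.10 to 14.5) did not pass the filter. Other genes of alternative activation were split. Of 5 tested genes of that list, Mgl2 among them, 3 were lower and 2 not called as deposited (35.2% of tested genes lower). After centring 2 were lower (5.35%). Ccl24 fell (-1.65, limma adjusted p = 0.00838). Klf4 fell as deposited (-1.21, limma adjusted p = 0.0174) and was not called after centring (-0.67, limma adjusted p = 0.111). Arg1 (28.6, 44.3 and 11.4 against 34.7, 0.968 and 4.15) and Chil3 (36.6, 24.3 and 31.2 against 25.5, 9.68 and 17.4) did not pass the filter, and their groups overlapped.

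Other cell types differed between the groups too, where 35.2% of tested genes were lower as deposited and 5.35% after centring. Of 6 monocyte genes tested 5 were lower (4 after centring), led by Fn1 (-2.80, limma adjusted p = 0.00561), which fibroblasts also express. Fibroblast and progenitor genes were lower in 7 of 8 (6 of 8 after centring), among them Dcn (-1.93, limma adjusted p = 0.00565), and their summed level was 29016 to 31290 in the cold and 69446 to 149388 at 30 °C. Mast cell genes were lower in 4 of 5 (2 after centring). Of blood endothelium genes, 1 of 6 was lower and none after centring, with a median of -0.08 that became 0.45. Eosinophil genes were near 0, with Ear6 at 0 in every sample and the 5 genes summing to 4.08 to 16.9 scaled counts. The 7 neutrophil genes summed to 62.3 to 112 in the cold and 49.2 to 159 at 30 °C, with Ly6g at 0 in every sample. Of these, S100a8 measured 35.4, 34.8 and 28.0 scaled counts against 5.10, 19.4 and 24.1. Its groups did not overlap, as for 9.09% of tested genes in this direction, and it was not called (1.20, limma adjusted p = 0.102). The part of these cell types in the marker values was not tested.

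Promoter sequence was examined because the markers moved together, using RefSeq promoters of GRCm38.p6 from 250 bases before to 50 bases after the start, with 8 promoters for 7 of the 10 genes. The 3 motifs searched on both strands had letters chosen while the sequences were in view, namely AGGAAGT for PU.1 and other ETS factors, TGANTCA for AP-1, and for STAT6 TTC and GAA with 4 bases of any kind between them. AGGAAGT lay in 3 of 8 promoters against 9.35% of 32851 promoters, TGANTCA in 3 of 8 against 7.81% and the STAT6 letters in 1 of 8 against 6.95%, counts too small for more than description. The windows below are 30 bases, 5′ to 3′ on the strand of the gene, with the motif in capitals. Mrc1 (chr2:14229192-14229221) and the first window of Retnla (chr16:48842400-48842429) show AGGAAGT as its reverse complement.
Mrc1, PU.1 letters: cacttctccccACTTCCTgcgttttctcct
Retnla, PU.1 letters: gaagtgggtttACTTCCTcaagtctcttga
Folr2, PU.1 letters: gctaaatcaccAGGAAGTgaaactcttcaa
Folr2, PU.1 letters, second match: ggccttgttgaAGGAAGTgtgtgctcccgg
Retnla, STAT6 letters: agaatcataaTTCACAAGAAattgctaaac
Cd68, AP-1 letters: taagttccgtgTGAGTCAgctgcctcattc
Cd68, AP-1 letters, second match: gctgaggtgtcTGAGTCAggtttggggtgg
Trem2, AP-1 letters: ttctccctcctTGAATCAcagcgcctaccc
The Folr2 windows lie at chr7:101857309-101857338 and chr7:101857254-101857283, the second Retnla window at chr16:48842454-48842483, the Cd68 windows at chr11:69666301-69666330 and chr11:69666176-69666205, and the Trem2 window at chr17:48346381-48346410. Both Folr2 windows come from a promoter outside the deposited Folr2 locus, which ends at 101847325. The other promoter of Folr2, inside that locus, has 1 AP-1 match and no AGGAAGT. The middle base of TGANTCA was left free, and the Trem2 match, in 1 of the 3 promoters counted, carries A there. AP-1 sites usually have C or G at that base, so the Trem2 window is a looser match than the Cd68 windows. None of the 3 motifs was found in the promoters of Cd163 and Timd4.

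Likeness among samples was described as Pearson's r over the 6 samples after each group mean had been removed from log2(scaled count + 1), which leaves few degrees of freedom and reads depth and tissue makeup as well. The genes most like Mrc1 were 2310022B05Rik, Emr1 (the table's symbol for Adgre1), Qpctl, Gm10762 and Habp4 (r of 0.998 to 0.999), and 788 tested genes exceeded 0.9. Those most like Cd68 were Wdr74, Gm2000, Tpt1, Ruvbl1 and Ssu72 (r of 0.994 to 0.999, 280 genes above 0.9). Nearest to Trem2 were Lta4h, Zbtb3, Chst14, Cd300ld and 4933427D14Rik (r of 0.981 to 0.992, 68 genes above 0.9). Among the markers themselves, Retnla, Clec10a and Folr2 varied together within groups (r of 0.962 to 0.992), as did Mrc1 with Cd163 (0.966) and Csf1r with Trem2 (0.920), whereas Cd68 and Mrc1 did not (-0.24).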

How the data were processed

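Whole iWAT RNA-seq of 3 cold and 3 thermoneutral samples was analysed. Per the methods, the authors used TruSeq libraries, removed genes with low read counts and applied TMM normalization. The submitters' processing notes name Bowtie 0.12.2, mm10 and mm8, without roles, and gene positions match GRCm38. The deposited counts are a scaled signal, since 94.5% to 95.0% of low values lay within 0.02 of a whole multiple of the sample's step, and the deposited FPKM values are per transcript length and library. Columns were matched to labels by initial and number.

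The filter kept 11650 genes that reached FPKM 1 in 3 or more samples. The test was limma 3.58.1 (R 4.3.3) on log2(scaled count + 1), two-sided, with Benjamini-Hochberg adjustment over all of them and calls at 0.05. Pandas 2.3.3 read the tables. Members and gene lists were chosen with earlier results of these data known. Named genes are the 10 markers, the CSF1, TREM2 and type 2 cytokine lists, up to 4 called genes by adjusted p (otherwise up to 2 by mean FPKM) from each other list, 3 paralogs and the genes most like Cd68, Mrc1 and Trem2. Not every gene of these lists is reported here. Ednrb, Sepp1, Flt4, Prox1, Ms4a1, Ccl21a, Ptprc, Gata3, Mpeg1, Aif1, C1qa, Lyz2, Tnf, Il1b, Il6, Arg1, Chil3, Ly6g, Ear6 and Retnlb were named after their values were seen. In simulated counts 100% of genes changed 4-fold and 50% of genes changed 2-fold were recovered. The simulation gave every gene the same dispersion and left 11450 of 11650 genes unchanged. It held no shift of the median gene and no samples that stood apart, so the recovery in these data is not known from it. An exact permutation test of 3 against 3 cannot go below p = 0.1, the value each of the 9 called markers reached (Timd4 0.4).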

Additional observations from a re-analysis of the deposited data

How the results depend on the processing

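With 4097 genes lower and 727 higher in the cold as deposited, centring on the median gene gave 623 and 1200, quantile normalization 704 and 1083, and an unadjusted p of 0.05 with a fold of 2 gave 2168 lower. Leaving out 1 sample gave 1061 to 5134 lower and 373 to 933 higher. Settings chosen after seeing the data gave 270 lower (centring, without cold sample 2), 967 lower and 1443 higher (centring, without cold sample 2 and thermoneutral sample 1). Markers called lower stayed at 8 to 10 of 10 when 1 sample was left out. Markers lower than the pan-macrophage mean were 3, but 1 with the pan-leukocyte reference, 1 with FPKM and 0 to 3 when 1 sample was left out. No marker was called higher in any setting. Trem2 and Timd4 did not pass a filter at FPKM 5. Over all named genes and settings, 152 lost their call, 29 gained one and none reversed. With the replicate number as a block, 3140 genes were lower and 568 higher, 9 of 10 markers were called lower and 1 was lower than the pan-macrophage mean. Same-numbered samples did not deviate together (correlations of -0.004, 0.038 and 0.066, and 4 of 6 samples nearest to their own number), so the numbers were not taken as pairs. Count tests (edgeR, DESeq2) were planned and not run, because the deposited values are not whole reads. Depth limits Trem2 in the cold (9.49 to 19.7 scaled counts) and the type 2 cytokine genes.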
